A study of Mus musculus with 8 samples.

Results

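Nanog is a homeodomain transcription factor of the inner cell mass and of embryonic stem cells (ESCs). Together with Oct3/4 and Sox2 it keeps ESCs in self-renewal, and forced Nanog lets them grow without leukemia inhibitory factor (LIF). Nucleostemin (NS), encoded by Gnl3, is a nucleolar GTP-binding protein with roles in ribosome biogenesis and in holding p53 down. The arrays asked how ESCs that had lost NS differed between cells with forced Nanog and cells with an empty vector. Of the 8 arrays analysed here, 1 per condition, 2 enter the main comparison. These are Nanog-overexpressing and empty vector-bearing NS tet-off ESCs, both treated with doxycycline (Dox) for 6 days. The difference given throughout is the log2 signal on the Nanog array minus that on the empty vector array, and it is described across 18194 genes. Over 2-fold means a difference above 1 or below -1.

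All cells were male ESCs of the 129sv strain background in which both copies of the NS gene were disrupted. NS came from a cDNA in the ROSA26 locus under the tetracycline-off system, so that Dox shut it off. The cells grew without feeders in LIF and serum. The Nanog cells carried a stably integrated expression vector selected with puromycin, and the sources used here do not say if they were a pool or 1 clone. The other 6 arrays are the partners of these 2 without Dox, Esrrb-overexpressing cells with and without Dox, and likewise empty vector cells in the 2i condition, that is, with inhibitors of MEK and GSK3b. With 1 array per condition no test was possible, and no difference below has a replicate check. In place of a spread between replicates, the empty vector and 2i arrays without Dox serve as a yardstick, the pair with the fewest genes apart among those without a Nanog array. They differed over 2-fold in 138 of the 18194 genes, with a standard deviation of 0.278 over genes. They are different culture labels and no replicates.

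The labels were checked first. The log2 signal of Gnl3 was 13.47 without and 7.79 with Dox in empty vector cells, and 13.68 and 9.13 in Nanog cells. Gnl3 was thus far lower with Dox in both, but 4.25% of the signal was left in the Nanog pair and 1.95% in the empty vector pair. The Dox-treated cells with forced Nanog therefore held 1.34 more Gnl3 signal on the log2 scale, and the part of this residue in the results below was not tested. The Nanog label was not borne out by the signal. The 1 probe set of Nanog read 12.49 on the empty vector and 12.23 on the Nanog array with Dox, and 12.81 and 12.35 without Dox. On the arrays labelled Esrrb-overexpressing, the brightest Esrrb probe set read 11.27 without and 11.38 with Dox, against 11.31 and 10.38 in empty vector cells. Without Dox it was thus no higher there, nor was another probe set, at 9.77 against 9.81. The dimmest Esrrb probe set was higher there, at 7.77 without and 7.87 with Dox, against 7.03 and 5.85 in empty vector cells. The sources used here do not say whether these probe sets read the vectors' transcripts, and Nanog cells and Esrrb cells are so called by their labels. Markers of ESCs were bright on both Dox-treated arrays. The signal of Pou5f1, which encodes Oct3/4, was 12.71 with the empty vector and 13.14 with forced Nanog, that of Sox2 was 12.87 and 12.92, and that of Zfp42 was 12.79 and 13.16. Of fibroblast markers, the collagen gene Col1a1 was low on both, at 4.09 and 3.68. Thy1, another such marker, was not, and read 6.23 with the empty vector and 7.80 with forced Nanog. Of 25 fibroblast markers 4 were over 2-fold higher with forced Nanog and 0 lower. Since whole cultures were measured, fewer cells of a type and less RNA per cell cannot be told apart in any difference below.

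Between the 2 Dox-treated arrays 585 genes were over 2-fold higher with forced Nanog, which is 3.22% of all genes, and 669 genes were over 2-fold lower, which is 3.68%. Together these 1254 genes are 6.89% of those measured. The median difference over all genes was 0.02, and 5% of genes lay below -0.81 and 5% above 0.80. The standard deviation of the difference was 0.549. Genes were also put into 5 equal groups by the higher signal of the 2 arrays. The dimmest group had 0.0275% over 2-fold apart, the middle group 12.8% and the brightest 7.69%. Both signals of a gene in the dimmest group were at most 4.09, so the grouping itself left that group little room to differ. A gene dim on only 1 of the 2 arrays falls into a brighter group, so these shares do not show what dim signals contributed. The scatter of the 2 arrays shows genes leaving the diagonal on both sides over nearly the whole range of signal.

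**Figure D1:**
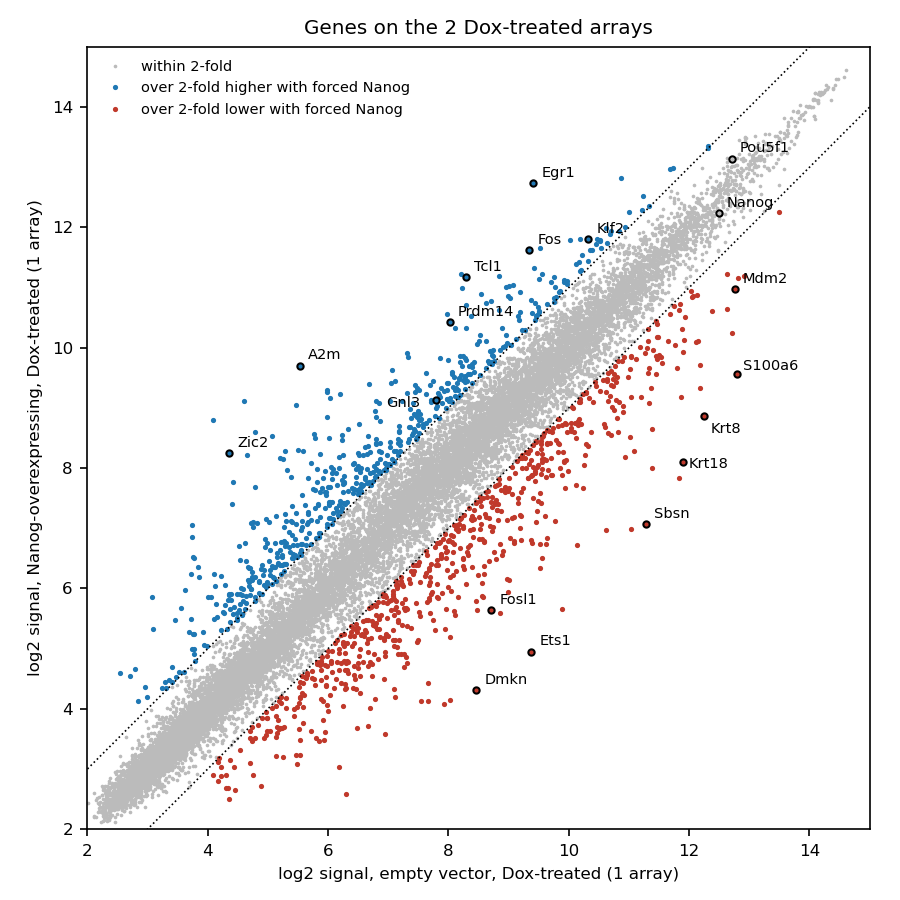
Log2 signal of 18194 genes on the Dox-treated empty vector array (horizontal axis) and the Dox-treated Nanog array (vertical axis), 1 array each, with dotted lines at a 2-fold difference. The 585 genes over 2-fold higher with forced Nanog are in blue, the 669 over 2-fold lower in red, and Nanog itself (12.49 and 12.23) lies within the lines.

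The difference between the 2 Dox-treated arrays is, for every gene, the sum of 3 measured parts. They are the difference already there without Dox, plus the Dox response of the Nanog pair, minus the Dox response of the empty vector pair. Among the 585 higher genes the response of the empty vector pair was the largest part for 406 (69.4%). Over all 585 its median was -1.02, and 298 of the 585 were over 2-fold lower with Dox in empty vector cells. The difference without Dox was the largest part for 90 genes (15.4%), and the response of the Nanog pair for 89 (15.2%). Among the 669 lower genes the response of the empty vector pair was the largest part for 575 (85.9%). Over all 669 its median was 1.65, and 514 of the 669 were over 2-fold higher with Dox in those cells. The response of the Nanog pair led for 65 of them (9.72%) and the difference without Dox for 29 (4.33%). The response of the empty vector pair was also the largest part for 52.3% of the 9546 genes with any difference above 0 and for 48.6% of the 8626 with any below 0. Its standard deviation over all genes was 0.644, against 0.371 for the response of the Nanog pair. Since the genes were chosen on 2 of the 4 arrays of the split, these shares are a description.

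The place of the 2 arrays among all 8 was counted next, although a gene chosen for a high difference tends by that choice to have an extreme value on 1 of the 2 arrays. The empty vector Dox-treated array was the lowest of the 8 for 440 of the 585 higher genes (75.2%), against 20.8% of all genes. It was the highest of the 8 for 491 of the 669 lower genes (73.4%), against 14.2% of all genes. The Nanog Dox-treated array was the highest of the 8 for 210 of the higher genes (35.9%, against 9.05% of all genes) and the lowest of the 8 for 120 of the lower genes (17.9%, against 11%). It lay within the range of the 4 Dox-untreated arrays for 234 of the higher genes (40.0%) and 255 of the lower genes (38.1%), against 47.3% of all genes. For the empty vector array these shares were 8.72% and 7.62%, against 37.4%. The Nanog Dox-treated profile was not that of untreated cells: 706 genes still differed over 2-fold between the Nanog Dox-treated and the empty vector Dox-untreated array, against 1677 for the empty vector Dox-treated array. With Dox, 206 genes of the Nanog pair stood above their untreated signal by more than 2-fold and 213 below it.

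The 15 highest differences among genes above the median signal ran from 4.50 to 2.86, and the genes differ in where the gap arose. Tcl1, Pmel and Fhod3 were high without Dox in both backgrounds and low with Dox in the empty vector cells. Tcl1, a coactivator of the kinase Akt and an ESC gene, read 11.56 without and 8.29 with Dox in empty vector cells, and 11.40 and 11.17 in Nanog cells, a difference of 2.88 between the Dox-treated arrays. Pmel, a structural protein of melanosomes, read 8.64 and 5.47 in empty vector cells and 8.78 and 9.04 in Nanog cells, a difference of 3.57. Fhod3, an actin-organizing formin, read 8.38 and 5.29 against 8.58 and 8.28. In these genes the Nanog pair hardly moved and the empty vector pair lost over 3 log2 units.

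In other genes of the 15 the gap was there before NS was lost and grew with Dox. Igfbp7, a secreted protein related to the insulin-like growth factor binding proteins, read 6.40 in empty vector and 9.03 in Nanog cells without Dox, and 5.99 and 9.26 with Dox. A2m, the protease inhibitor alpha-2-macroglobulin, read 5.97 and 8.58 without Dox, and 5.53 and 9.70 with Dox. Egr1, a zinc finger transcription factor induced within minutes by growth factor signalling, read 9.51 and 11.20 without Dox, and 9.41 and 12.74 with Dox. Each of these was raised in the Nanog cells while NS was still expressed. The 2i array without Dox, also of empty vector cells, read above the empty vector array too, at 6.92, 7.10 and 10.73 for Igfbp7, A2m and Egr1. A2m and Egr1 were also high on the Esrrb arrays, at 9.40 and 10.73 for A2m and at 11.55 and 12.55 for Egr1 without and with Dox. Gprc5b, an orphan G protein-coupled receptor, and Blnk, an adaptor of B cell receptor signalling, were of the same kind, with differences of 3.33 and 3.48 with Dox and 1.48 each without. Manba, a lysosomal mannosidase, read 9.31 and 8.22 in empty vector cells and 10.16 and 11.23 in Nanog cells.

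The probe sets of some of these genes disagree. The difference of Notch4, a Notch receptor, was 3.82 by its brightest probe set and 0.12 by another, and for Igfbp7, Apobec2, Trpm1 and Arhgap30 the smallest differences of any probe set were 0.11, -0.07, -0.04 and 0.17. The remaining members of the 15 were 2210409E12Rik (4.50), which was low in empty vector cells and between 7.32 and 9.28 on all 6 other arrays, and S100a13 (3.14), a calcium-binding protein. Gstt1, a glutathione transferase, fell under the rule's signal limit but held the highest difference of all genes, 4.70, with 4.09 on the empty vector and 8.80 on the Nanog array. Its name was added after its values were seen.

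**Figure D2:**
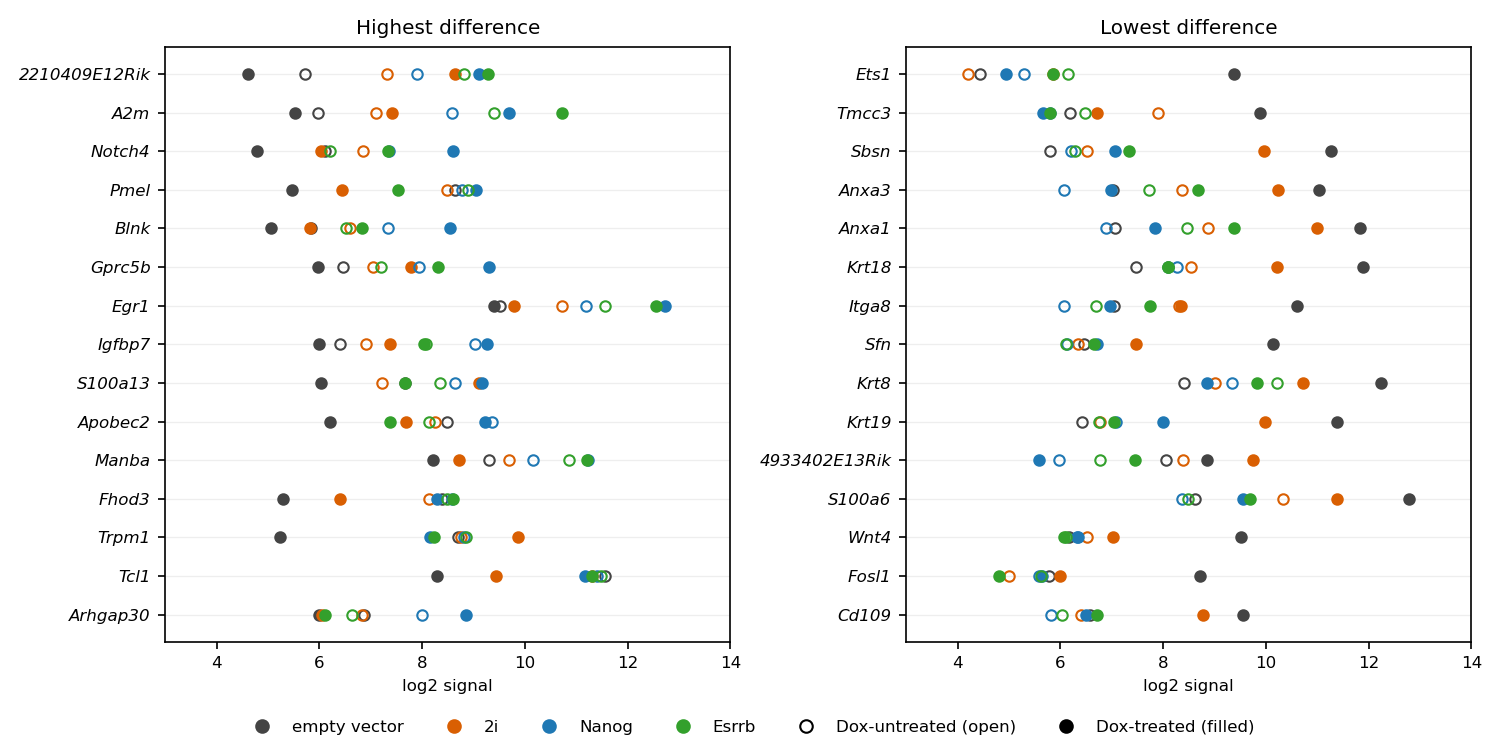
Log2 signal (horizontal axis) on each of the 8 arrays for the 15 genes with the highest and the 15 with the lowest difference among genes above the median signal, where each circle is 1 array, open without Dox and filled with it. For Krt18 the filled empty vector circle (11.89) stands alone at the right with 2i (10.22) next, while Nanog (8.10) and Esrrb (8.10) stay with the open circles.

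The 15 lowest differences ran from -4.43 to -3.05, and for all but 1 of them, 4933402E13Rik, the Dox response of the empty vector pair was the largest of the 3 parts. Ets1, the founding member of the ETS family of transcription factors, read 4.44 without and 9.38 with Dox in empty vector cells, and 5.30 and 4.95 in Nanog cells, the lowest difference of all. The keratins of simple epithelia, Krt8, Krt18 and Krt19, stood together here. Krt18 read 7.48 and 11.89 in empty vector cells and 8.27 and 8.10 in Nanog cells, Krt8 read 8.40 and 12.25 against 9.34 and 8.86, and Krt19 read 6.43 and 11.39 against 7.08 and 8.0. Without Dox all 3 keratins were higher in Nanog than in empty vector cells, by 0.65 to 0.94, so their order turned with Dox.

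Anxa1 and Anxa3, membrane-binding annexins, and S100a6, a calcium-binding protein, were also among the 15, while S100a13 was among the highest. Anxa1 read 7.06 and 11.84 in empty vector cells and 6.88 and 7.83 in Nanog cells, though another of its probe sets differed by only -0.54. Anxa3 read 7.02 and 11.03 against 6.07 and 6.99, and S100a6 read 8.61 and 12.80 against 8.37 and 9.56. Fosl1, which encodes the AP-1 subunit Fra-1, read 5.79 and 8.71 against 5.59 and 5.64. Sfn, the 14-3-3 protein of epithelial cells, Itga8, an integrin, and Wnt4, a Wnt ligand, differed by -3.43, -3.65 and -3.18, and Tmcc3 and Cd109, a surface glycoprotein, by -4.23 and -3.05. 4933402E13Rik was the exception, with 8.05 and 5.98 in empty vector and Nanog cells without Dox and 8.86 and 5.59 with Dox, a gap that mostly preceded the loss of NS.

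Sbsn, Dmkn and Krtdap, which encode secreted proteins of the upper epidermis, lie next to each other on mouse chromosome 7, and all 3 were over 2-fold lower with forced Nanog. Sbsn read 5.79 and 11.28 in empty vector cells and 6.20 and 7.07 in Nanog cells, a difference of -4.20. Dmkn read 3.79 and 8.46 against 3.68 and 4.30, a difference of -4.16. Krtdap read 4.23 and 7.17 against 5.40 and 5.14, a difference of -2.03. All 3 were also high on the 2i Dox-treated array, at 9.97, 9.20 and 10.16, and low on the Esrrb Dox-treated array, at 7.33, 5.20 and 4.39. Their promoters are shown because the 3 neighbours share a motif. They run from 250 bases before to 50 bases after the start of the gene (RefSeq, build GRCm38.p6, plus strand, 5′ to 3′). Capitals mark each match to TGANTCA, searched on both strands. This is a looser form, with any middle base, of TGACTCA or TGAGTCA, the site of AP-1 dimers of Fos and Jun proteins. The 3 windows lie at chr7:30751221-30751520 for Sbsn, chr7:30776155-30776454 for a downstream start of Dmkn and chr7:30787655-30787954 for Krtdap.
Sbsn: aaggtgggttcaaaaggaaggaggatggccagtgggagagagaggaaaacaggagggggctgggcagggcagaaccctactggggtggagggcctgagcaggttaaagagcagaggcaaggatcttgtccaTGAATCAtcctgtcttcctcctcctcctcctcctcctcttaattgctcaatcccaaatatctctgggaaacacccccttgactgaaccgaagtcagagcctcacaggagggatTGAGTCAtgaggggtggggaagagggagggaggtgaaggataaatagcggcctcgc
Dmkn: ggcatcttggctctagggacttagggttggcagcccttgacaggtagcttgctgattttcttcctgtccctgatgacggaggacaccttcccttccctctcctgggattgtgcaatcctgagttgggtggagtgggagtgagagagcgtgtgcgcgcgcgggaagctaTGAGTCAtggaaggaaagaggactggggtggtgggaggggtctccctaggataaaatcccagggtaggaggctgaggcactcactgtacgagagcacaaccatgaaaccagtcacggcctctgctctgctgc
Krtdap: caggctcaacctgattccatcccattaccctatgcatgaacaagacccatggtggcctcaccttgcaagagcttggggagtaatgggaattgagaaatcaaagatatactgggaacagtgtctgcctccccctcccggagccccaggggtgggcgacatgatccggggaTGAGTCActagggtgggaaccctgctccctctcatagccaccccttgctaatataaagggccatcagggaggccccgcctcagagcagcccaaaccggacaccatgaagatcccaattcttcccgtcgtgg

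In Dmkn and Krtdap the match starts 82 and 81 bases before the gene start, and in Sbsn the 2 matches start 119 and 6 bases before it. The Sbsn match at 119 bases is TGAATCA, which fits only the looser form. The upstream starts of Dmkn hold a match as well. These genes were picked after their values were seen, and a match is a description of letters only. TGANTCA, with any middle base counted, occurs in 7.81% of 32851 promoter windows. Of genes measured with a window it is in 7.54% of 14453, of those over 2-fold higher with forced Nanog in 7.48% (33 of 441), and of those over 2-fold lower in 10.8% (55 of 511). TCAAGGTCA, the site that Esrrb binds, is in 0.401% of the windows of genes measured, in 2 of 441 higher and in 0 of 511 lower genes.

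Counts over gene lists below are to be read against the 3.22% of all genes over 2-fold higher and the 3.68% lower, so 1 gene in a list of about 30 is no more than that background. The genes that keep ESCs in self-renewal were higher with forced Nanog in a group. Of 32 pluripotency genes measured, 11 (34.4%) were over 2-fold higher while 1 was lower by as much, with a median difference of 0.43 against 0.02 over all genes. Prdm14, a zinc finger factor of ESCs and germ cells, read 9.83 without and 8.02 with Dox in empty vector cells and 10.38 and 10.43 in Nanog cells. Klf2, a Krüppel-like factor of naive ESCs, read 12.48 and 10.32 against 12.21 and 11.81, and Klf4, another, read 12.90 and 11.68 against 13.24 and 12.97. In all of these the Nanog cells with Dox stayed near their own Dox-untreated value while the empty vector cells without 2i dropped. In 2i cells Prdm14 read 10.25 without and 10.42 with Dox, Klf2 read 12.44 and 11.89, and Klf4 read 13.03 and 12.78. Set against the 2i Dox-treated array, 4 of the 32 genes were over 2-fold higher with forced Nanog and 1 was lower. Over the list the median response to Dox was -0.61 in the empty vector and -0.01 in the Nanog pair. Esrrb, an orphan nuclear receptor and a direct target of Nanog, read 11.31 and 10.38 against 11.53 and 11.63, a difference of 1.25, and its 3 probe sets ranged from 0.90 to 1.41. Tbx3 (1.76), a T-box factor, and Eras (1.63), a constitutively active Ras of ESCs, were also over 2-fold higher, though for Tbx3 the lowest probe set gave -0.09. The single lower gene was Dppa3 (-1.23), an ESC and germ cell gene. Factors at the core of the network moved less, with Pou5f1 at 0.44, Zfp42 at 0.36, Sall4 at 0.13 and Sox2 at 0.05.

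LIF keeps serum-grown ESCs undifferentiated through its receptor and Stat3. Of 18 genes of this pathway 4 were over 2-fold higher and 0 lower, with a median of 0.56. Socs2, a feedback inhibitor of cytokine receptors, read 11.23 without and 9.56 with Dox in empty vector cells and 11 and 11.23 in Nanog cells. Its 6 probe sets differed by 0.05 to 1.80 between the Dox-treated arrays. Lifr, the LIF receptor, read 10.73 and 9.64 against 10.56 and 10.74, and Tfcp2l1, a factor downstream of Stat3, read 11.99 and 11.22 against 11.92 and 12.29. Klf4, given above, was the fourth. Socs3, the classical Stat3 target, differed by 0.43.

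**Figure D3:**
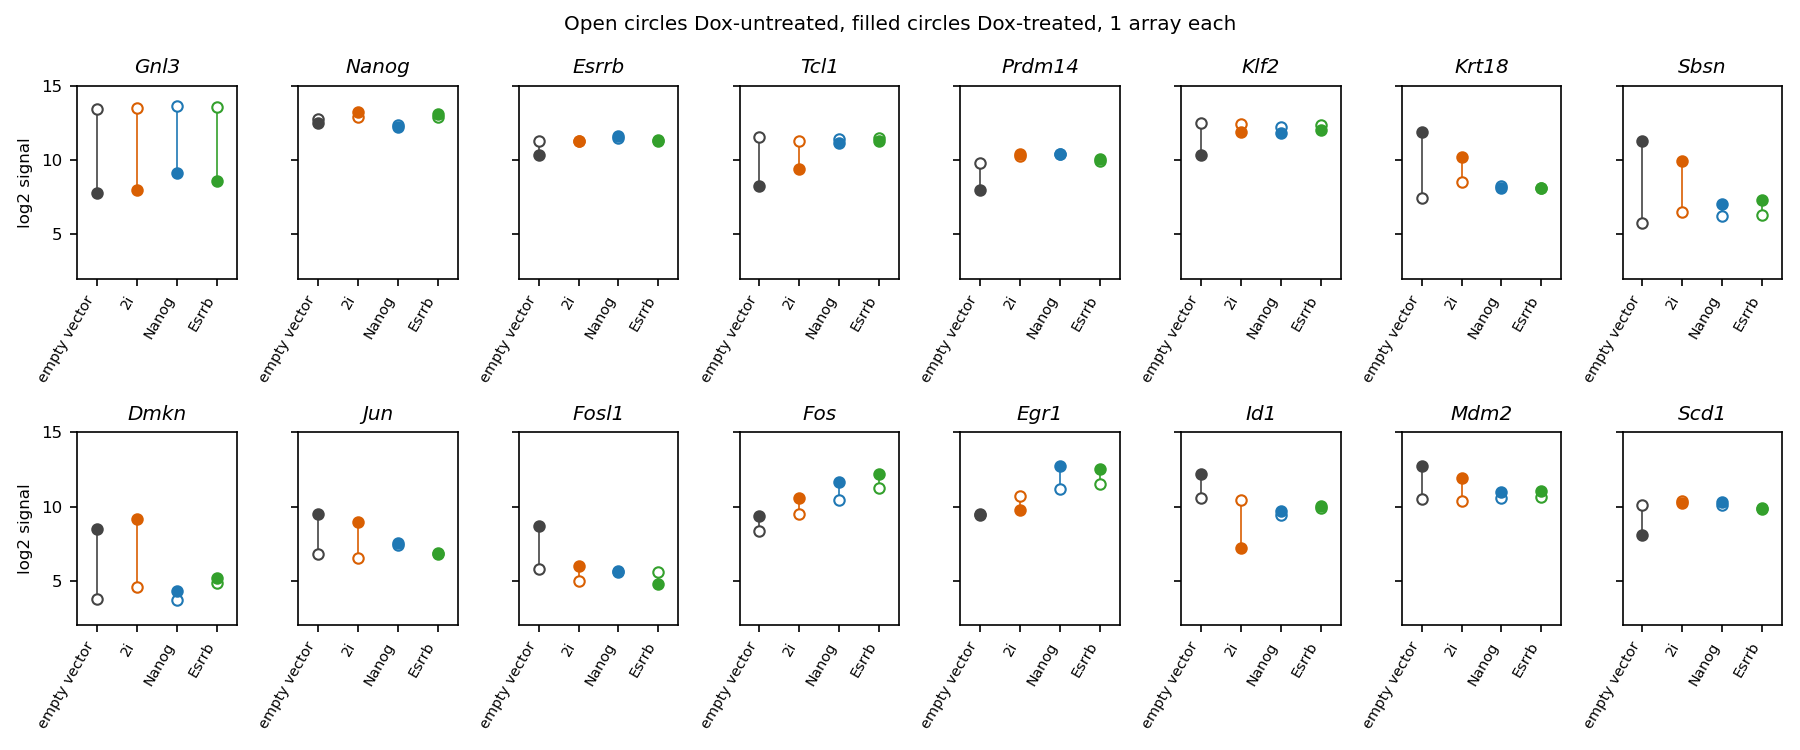
Log2 signal (vertical axis) of 16 genes in 4 backgrounds (horizontal axis), each circle being 1 array, open without and filled with Dox. Gnl3 drops in all 4 backgrounds, while Tcl1 (8.29), Prdm14 (8.02) and Klf2 (10.32) are lowest in the Dox-treated empty vector cells and Krt18 (11.89) and Sbsn (11.28) highest there.

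The AP-1 and immediate early genes were divided. AP-1 is a dimer of Fos and Jun family proteins, and of 25 genes measured 4 lay more than 2-fold above and 6 more than 2-fold below the empty vector, with a median of -0.10. Fos read 8.35 without and 9.34 with Dox in empty vector cells and 10.44 and 11.63 in Nanog cells, a difference of 2.29. Its partner Jun read 6.81 and 9.52 against 7.44 and 7.58, a difference of -1.94, and Fosl1 differed by -3.07. With forced Nanog the cells thus had more Fos and less Jun and Fosl1 signal. Of the Erk-responsive genes, Egr1 (3.33) and Egr2 (2.77) were higher while Phlda1 (-2.51) and Dusp1 (-1.06), an Erk and Jnk phosphatase, were lower. Over the 19 MEK and Erk feedback genes 2 were over 2-fold higher and 3 lower, and the feedback inhibitors Dusp6 and Spry4 differed by only -0.61 and 0.22.

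BMP signals reach ESCs from serum and induce the Id genes, inhibitors of helix-loop-helix factors. Of 24 Nodal and BMP pathway genes 3 were over 2-fold higher and 6 lower, with a median of -0.31. Id1 read 10.55 without and 12.18 with Dox in empty vector cells and 9.45 and 9.71 in Nanog cells, a difference of -2.47. Id2 read 9.54 and 11.80 against 8.50 and 9.66, a difference of -2.14, with another probe set at -0.46. Both were already over 2-fold lower in Nanog cells without Dox, by 1.10 and 1.04. Id4 (1.80) and Smad7 (1.38), an inhibitor of TGF-beta family receptors, were higher. Of 16 Wnt and beta-catenin targets 0 were over 2-fold higher and 4 lower, with a median of -0.15, and 6 lay above 0. Sp5 (-1.93) led the lower genes, with 6.14 and 8.26 in empty vector cells and 5.96 and 6.33 in Nanog cells. Axin2 (-0.23), Nkd1 (-0.07) and Lgr5 (-0.07) differed little, and Notum (0.71) and Znrf3 (0.59) lay above 0.

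Epithelial and trophoblast genes were a further block of lower genes. Trophoblast is the first lineage to leave the embryo proper, and Nanog is known as a factor of the inner cell mass side of that choice. Of 29 trophoblast markers measured 12 were over 2-fold lower (41.4%) and 1 higher, with a median of -0.80. Ascl2, a helix-loop-helix factor of the ectoplacental cone, read 6.30 without and 9.0 with Dox in empty vector cells and 6.03 and 6.14 in Nanog cells. Gata3, a trophoblast GATA factor, read 4.03 and 5.99 against 3.81 and 4.07. Igf2, an imprinted growth factor of the placenta, read 6.61 and 9.63 against 6.53 and 6.83, though another of its probe sets differed by only -0.42. Other regulators of the lineage did not pass 2-fold. Cdx2, a homeobox factor of trophoblast stem cells, read 4.28 and 5.35 in empty vector cells and 4.61 and 4.57 in Nanog cells, a difference of -0.78. Tfap2c and Esx1 differed by -0.99 and -0.80, Eomes differed by 0.16 at 7.84 and 8.0, Elf5 by 0.00 at 3.32 on both arrays, and Hand1 by -0.63. The log2 signals of the 29 markers summed to 175.7 without and 213.7 with Dox in empty vector cells, and to 177.5 and 180.0 in Nanog cells. Over all probe sets of these genes the median was -0.41 rather than -0.80. Ets2 (1.17), an ETS factor of trophoblast, was the 1 marker higher.

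Of 38 genes of simple epithelia and their junctions 17 were over 2-fold lower (44.7%) and 0 higher, with a median of -0.87, and 34 of the 38 lay below 0. Over all their probe sets the median was -0.35. Beside the keratins, which are shared with the trophoblast list, they included Cldn6 (-2.64), Cldn7 (-1.48) and Cldn4 (-1.08), claudins of tight junctions, Ocln (-1.14), and Dsc2 (-2.26), Dsp (-1.74) and Pkp2 (-1.87) of desmosomes. Cldn6 read 7.87 and 9.76 in empty vector cells and 7.38 and 7.12 in Nanog cells. Of 38 keratinocyte differentiation genes, of which 15 were dim on all 8 arrays, 8 were over 2-fold lower and 3 higher, with a median of -0.23. Fgfbp1 (-2.86), which releases fibroblast growth factors from the matrix, was among them. Trp63, the master regulator of stratified epithelium, was at 3.83 and 3.73, near the floor of both arrays.

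Genes of the cytoskeleton and of cell spreading, driven by serum response factor (SRF) and by YAP, were lower with forced Nanog in a group. Of 33 measured 15 were over 2-fold lower (45.5%) and 0 higher, with a median of -0.73. The other 18 lay within 2-fold. Among these, Acta2 (-0.20), Actb (-0.24), Cnn1 (-0.13) and Vcl (-0.09) differed little, and Ankrd1 (0.13) and Srf (0.26) lay above 0. Ccn1 and Ccn2, matricellular proteins and standard YAP targets, read 10.94 and 12.71 with the empty vector and 8.19 and 10.25 with forced Nanog. Thbs1, thrombospondin, read 3.63 without and 6.66 with Dox in empty vector cells and 3.75 and 3.72 in Nanog cells, and Tagln, an actin-binding protein, differed by -2.63. Tpm1 (-1.96, another probe set at 0.15), tropomyosin, Axl (-2.36), a receptor tyrosine kinase, and Tgfb2 (-1.87) were lower as well. Of 38 adhesion and matrix genes 10 were over 2-fold lower, among them Plaur (-2.04), the urokinase receptor, Itgb4 (-1.74) and Itga3 (-1.50), integrins, and Cd44 (-1.54), whose probe sets ran up to 0.24. Only Fn1 (1.26), fibronectin, and Lama1 (1.51), a laminin chain, were over 2-fold higher. Fn1 read 12.30 and 10.36 in empty vector cells and 12.10 and 11.62 in Nanog cells.

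The p53 targets were lower as a block. NS restrains p53, whose targets stop the cell cycle or start apoptosis. Of 33 measured 9 were over 2-fold lower (27.3%) and 0 higher, 29 lay below 0, and the median was -0.78. Mdm2, which marks p53 for degradation, read 10.54 without and 12.76 with Dox in empty vector cells and 10.60 and 10.97 in Nanog cells. Fas, a death receptor, read 4.36 and 7.21 against 3.81 and 4.91, and Pmaip1, which encodes the BH3-only protein Noxa, read 9.86 and 11.53 against 9.66 and 9.85. Cdkn1a, the cell cycle inhibitor p21, read 9.62 and 11.08 against 9.86 and 10.34, a difference of -0.74. The response to Dox was not zero in Nanog cells: the list's median was 0.31 there and 1.18 in empty vector cells, and 4 and 19 of the 33 genes were over 2-fold higher with Dox. The Gnl3 signal left was also higher in Nanog cells, as given above, and its part here was not tested.

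Apoptosis genes pointed both ways. Of 26 of the Bcl2 family, the caspases and their partners 5 were over 2-fold lower and 2 higher, with a median of -0.15. Of the lower genes, Fas, Pmaip1 and Apaf1 (-1.20) are also in the p53 list. Both the anti-apoptotic Bcl2l1 (-1.17, another probe set at 0.28) and the pro-apoptotic Bcl2l11 (-1.04), which encodes Bim, were lower. The BH3-only gene Bmf (1.71, another probe set at 0.01) and Casp9 (1.18, another probe set at -0.035) were higher. In the integrated stress response some gaps lay in the Nanog pair. Its 27 genes had a median difference of -0.01, and 3 were over 2-fold lower. Atf5, a stress-induced bZIP factor, read 9.62 and 9.43 in empty vector cells and 10.05 and 7.78 in Nanog cells, so that the drop lay in the Nanog pair. Cebpb, a relative, read 10.59 and 10.80 against 10.92 and 9.52, and Ddit3, which encodes CHOP, read 9.68 and 9.98 against 8.79 and 7.95. Another probe set of Ddit3 differed by only -0.23 between the Dox-treated arrays. The Esrrb pair dropped as well for Atf5, from 10.42 to 8.40, and for Cebpb, from 10.92 to 9.44.

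**Figure D4:**
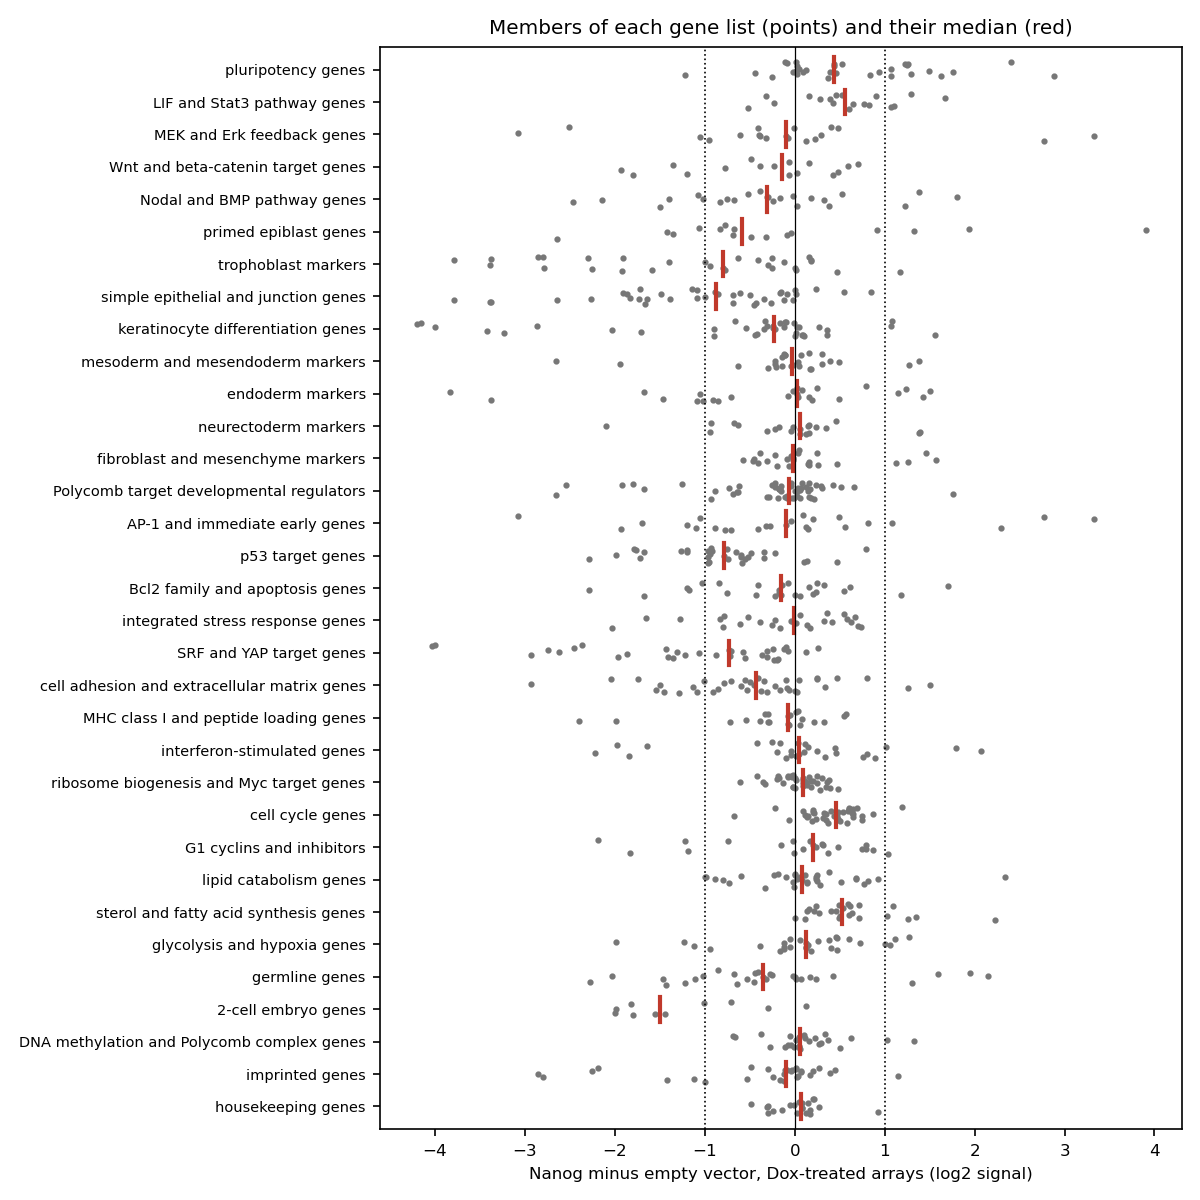
Difference between the Nanog and the empty vector Dox-treated array (horizontal axis, log2 signal) for each member of 33 gene lists (points, with vertical jitter for visibility) and the list's median (red bars), with dotted lines at 2-fold. Trophoblast markers (-0.80), epithelial genes (-0.87), p53 targets (-0.78) and SRF and YAP targets (-0.73) lie left of 0, pluripotency (0.43), cell cycle (0.46) and sterol synthesis genes (0.52) right of it, and ribosome biogenesis (0.09) and housekeeping genes (0.07) close around it.

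Markers of the germ layers had no common direction. Of 26 mesoderm markers 2 were over 2-fold higher and 2 lower, with a median of -0.03. Tbx4, a T-box factor of the allantois and hindlimb, read 4.72 and 8.45 in empty vector cells and 4.67 and 5.80 in Nanog cells, and Lhx1, a LIM homeobox factor, differed by -1.94. Of 25 endoderm markers 4 were higher and 7 lower, with a median of 0.02. Gata6, a primitive endoderm factor that opposes Nanog in the inner cell mass, read 4.89 and 6.31 against 5.23 and 4.64, while it was at 8.39 and 7.81 in Esrrb cells. Another probe set of Gata6 differed by only -0.03 between the Nanog and empty vector Dox-treated arrays. Gata4 and Sox17 differed by 0.04 and 0.02, at 4.57 and 5.19 with the empty vector. Lrp2, the endocytic receptor megalin, read 7.78 and 7.92 against 6.22 and 4.08, though its other probe sets reached 0.13. Of 21 neurectoderm markers 2 were higher and 1 lower, and Pax6 differed by 0.16, with another probe set at 2.22. Of 54 Polycomb target regulators 1 was higher and 6 lower, among them Wnt5a (-2.55, other probe sets up to 0.06). Fibroblast markers gave 4 of 25 higher, led by Thy1 (1.57), and 0 lower.

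Genes of the primed epiblast, the state after implantation, pointed both ways. Of 16 measured 3 were over 2-fold higher and 4 lower, with a median of -0.58. Zic2, a zinc finger factor, read 6.24 and 4.35 in empty vector cells and 7.48 and 8.25 in Nanog cells, a difference of 3.90, and its neighbour Zic5 differed by 2.60. Fgf15, a growth factor, read 6.81 and 4.53 against 7.19 and 6.47. Otx2, a homeobox factor of the primed state, was lower with Dox in both, at 9.11 and 6.79 against 7.99 and 6.11.

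Cell cycle genes were shifted by small amounts and nearly all the same way. Of 38 measured 35 lay above 0 and 3 below, with a median of 0.46, but only Brca2 (1.19), a DNA repair gene, passed 2-fold. Their median response to Dox was -0.41 in empty vector and 0.00 in Nanog cells. Among 21 G1 cyclins and inhibitors 4 were over 2-fold lower and 1 higher, while 13 lay above 0, with a median of 0.21. Of the 4 lower genes 3 restrain the cycle, and the other is the cyclin gene Ccnd2 (-1.22). Cdkn2b, which encodes p15, read 5.20 and 8.97 in empty vector cells and 5.68 and 7.14 in Nanog cells. Cdkn1c, which encodes p57, read 9.78 and 10.25 against 8.67 and 8.06, and Rb1 differed by -1.19. Ribosome biogenesis and Myc targets, the process in which NS itself takes part, differed by -0.60 to 0.48, so that 0 of 39 passed 2-fold. The 22 housekeeping genes ran from -0.48 to 0.93.

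Sterol and fatty acid synthesis genes were higher together. All 24 genes lay above 0, with a median of 0.52, and 5 were over 2-fold higher. The median response to Dox was 0.51 in Nanog and -0.00 in empty vector cells, so between these 2 pairs the list's shift lay in the Nanog pair. A rise with Dox was not particular to Nanog cells. The log2 signals of the 24 genes summed to 219.0 without and 231.4 with Dox in Nanog cells. The sums were 218.6 and 225.6 in Esrrb cells, 218.2 and 226.2 in 2i cells and 216.3 and 216.6 in empty vector cells. Insig1, a sterol sensor partner, read 8.49 and 7.93 in empty vector cells and 8.66 and 9.28 in Nanog cells. Dhcr7, the last enzyme of cholesterol synthesis, read 6.93 and 7.77 against 7.55 and 8.87, and Scd2, a fatty acid desaturase, read 11.72 and 11 against 11.48 and 12.26. For Insig1 and Scd2 the empty vector signal also fell with Dox. Scd1, a relative of Scd2, differed mostly through the empty vector pair, with 10.11 and 8.10 against 10.09 and 10.32. Of 33 lipid catabolism genes 1 was higher, Hexa (2.34), a lysosomal hexosaminidase that read 12.30 and 8.85 against 12.21 and 11.19, and 1 lower. Glycolysis and hypoxia genes gave 4 of 29 higher and 3 lower. Slc2a1, the glucose transporter Glut1, differed by -1.23.

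**Figure D5:**
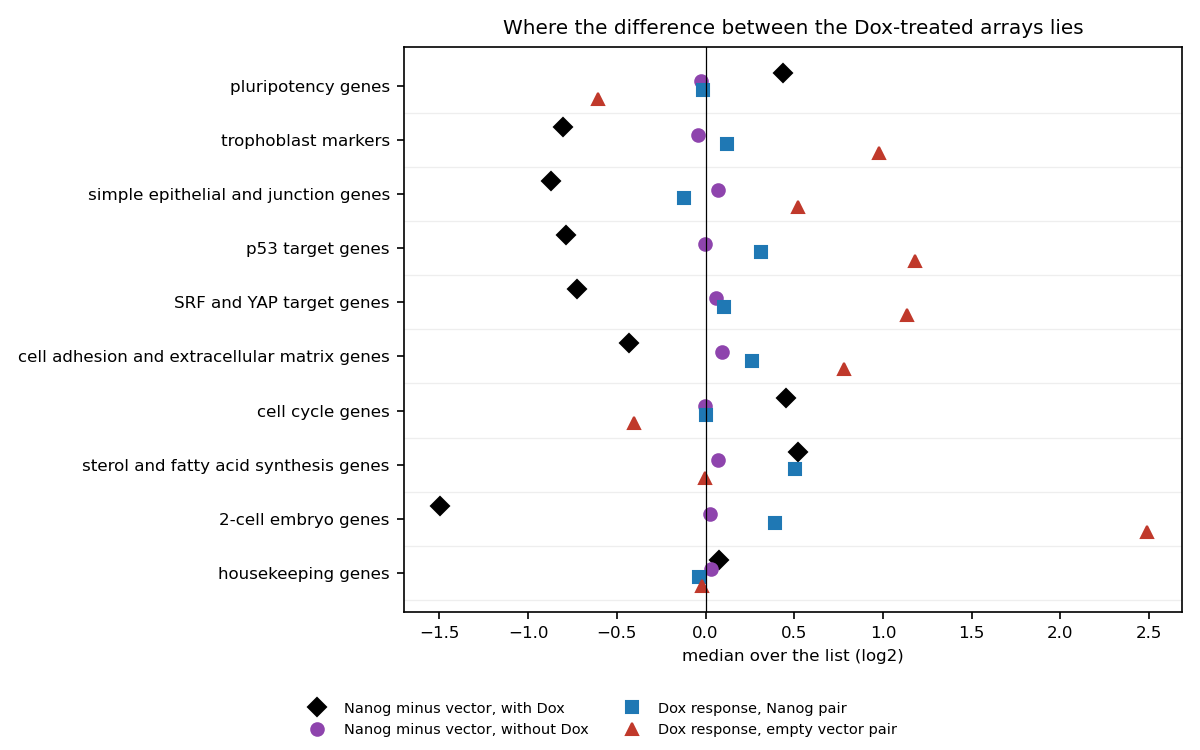
Median over each of 10 gene lists (horizontal axis, log2) of the difference between the Nanog and empty vector arrays with Dox (diamonds) and without Dox (circles) and of the response to Dox in the Nanog (squares) and empty vector pair (triangles). For most lists the triangle lies opposite the diamond, as for p53 targets (1.18 and -0.78), whereas for sterol and fatty acid synthesis the square (0.51) lies beside the diamond (0.52).

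Genes of the 2-cell embryo, which a small share of ESCs switches on at any time, were lower with forced Nanog. Of 10 measured of 24 listed, 7 were over 2-fold lower, with a median of -1.50. Zfp352 read 4.82 and 7.82 in empty vector cells and 5.45 and 5.83 in Nanog cells. AF067061 read 7.18 and 11.55 against 6.78 and 9.75, so it was also higher with Dox in Nanog cells, and it was at 12.05 in Esrrb cells. AF067061, Gm20767 and Tcstv1 are copies of 1 family whose probe sets may share transcripts, so they are uncertain as separate genes. The count of 7 may therefore hold the same transcripts more than once. Of 29 germline genes 4 were higher and 7 lower. Dmrt1, a factor of germ cells, read 10.22 and 7.75 against 9.30 and 5.47, and Taf7l read 8.64 and 8.39 against 8.84 and 6.36. Kit, a receptor tyrosine kinase, was higher at 8.65 and 8.37 against 9.84 and 10.52, and Rhox5, an X-linked homeobox gene, at 9.93 and 10.87 against 11.10 and 12.82.

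Among 26 genes of DNA methylation and Polycomb complexes, Uhrf1 (1.33), which guides maintenance methylation, and Tet2 (1.02) were higher and 0 were lower. Imprinted genes gave 1 of 30 higher (3.33%, near the 3.22% of all genes) and 6 lower, led by Ascl2 (-2.86), Igf2 (-2.80), Peg10 (-2.26) and Cdkn1c (-2.19). Of 21 MHC class I and peptide loading genes 2 were lower, Tap1 (-2.40), a peptide transporter whose probe sets ran up to 0.13, and Nlrc5 (-1.99), the activator of MHC class I genes. Interferon-stimulated genes were divided, with 3 of 27 higher and 4 lower. Oas1a read 8.94 and 7.04 against 9.06 and 9.11, while Ifitm3 read 8.73 and 11.90 against 8.46 and 9.93 and Gbp2 read 3.03 and 5.46 against 2.97 and 3.23.

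Xist, the RNA that silences an X chromosome in female cells, was named after its values were seen. With 1 probe set it read 7.36 on the empty vector Dox-treated array and 3.04 to 3.82 on the other 7, and with another 6.70 against 3.24 to 4.29. The brightest of its 3 probe sets read 9.83 against 7.94 to 9.06. By 2 of the 3 probe sets, then, Xist was well above the other arrays only on the Dox-treated empty vector array without 2i, of cells labelled male. The 2i Dox-treated array, also of empty vector cells that had lost NS, read 3.82 and 4.29 by these probe sets. Between the Nanog and the empty vector Dox-treated array the differences were -3.93, -3.16 and -1.43. Of Y-linked genes, Eif2s3y read 6.18 to 8.07 on the 8 arrays by its brighter probe set, while every probe set of Kdm5d and Uty read 2.26 to 3.79.

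Some genes over 2-fold apart had a neighbour that differed the same way. Of 18123 pairs of neighbouring measured genes 94 were both over 2-fold higher or both lower, in 79 runs that hold 173 genes, and 13 runs had at least 3 genes. Beside Sbsn, Dmkn and Krtdap these included Tcl1, Tunar (1.35) and D430019H16Rik (2.36), and Zic5, 2610035F20Rik (1.86) and Zic2. Others were Trh (2.76), Prickle2 (1.82) and Adamts9 (1.82), S100a1 (1.59), S100a13 and S100a14 (1.56), and, among lower genes, the guanylate-binding proteins Gbp3 (-1.65), Gbp2b (-3.37) and Gbp2. The longest run held 5 lower genes, AF067063 (-1.13), D13Ertd608e (-1.41), Tcstv1 (-1.45), Gm20767 (-1.82) and AF067061 (-1.80). Gene families next to each other can share probe sequence, so such runs are a description of the map.

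Without Dox, the Nanog and empty vector arrays differed over 2-fold in 79 genes higher with forced Nanog (0.434%) and 46 lower (0.253%), 0.687% together. This contrast shares no array with the one after Dox. Of the 585 genes higher after Dox 52 were among the 79, which is 8.89% of the former and 65.8% of the latter. Of the 669 lower genes 17 were among the 46, or 2.54% and 37.0%. No gene higher after Dox was over 2-fold lower before it, while 4 genes lower after Dox were over 2-fold higher before it. They were Krtdap, Gsn (-1.83, and 1.5 without Dox), Prph (-1.48 and 1.06) and Tdrd7 (-1.21 and 1.04). After Dox 3.22% of all genes were over 2-fold higher and 3.68% lower, so a few such genes among the 46 and the 79 are near that background. Across the 18194 genes the 2 contrasts had a Pearson correlation of 0.251, a description in which genes are no independent replicates.

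Esrrb cells and 2i cells after Dox gave a second contrast with no shared array. In Esrrb minus 2i 491 genes were over 2-fold higher (2.70%) and 543 lower (2.98%). Of the 585 genes higher with forced Nanog 158 were also higher there (27.0% of the 585 and 32.2% of the 491), and 26 were lower. Of the 669 lower genes 198 were also lower (29.6% and 36.5%) and 21 higher. The 26 and 21 genes that went the other way are to be read against the 2.98% lower and 2.70% higher among all genes. Sbsn, Dmkn and Krt19 were lower in both, with -2.64, -4.00 and -2.93 in Esrrb minus 2i, and A2m, Egr1 and Manba higher in both, with 3.31, 2.75 and 2.48. Id1 went the other way, at 2.83, from the low signal of 7.21 on the 2i array. Across the 18194 genes the Pearson correlation with the Nanog contrast was 0.393.

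The same Nanog array set against the 2i Dox-treated array, which shares it, gave 495 genes over 2-fold higher (2.72%) and 701 lower (3.85%), 6.57% together. The medians over lists were closer to 0 for p53 targets (-0.57), SRF and YAP targets (-0.50) and pluripotency genes (0.17), and further from it for cell cycle (0.55) and 2-cell genes (-1.65). The median of epithelial genes was -0.34 rather than -0.87. The sign turned for MEK and Erk feedback genes (from -0.09 to 0.61), primed epiblast genes (from -0.58 to 0.41), Nodal and BMP genes (from -0.31 to 0.02) and endoderm markers (from 0.02 to -0.29).

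Other probe sets of the same genes give a limited second reading on the same RNA. Of the 585 higher genes 314 had other probe sets, 551 in all, and 87.7% of these had the same sign, 32.1% were themselves over 2-fold higher and 0 over 2-fold lower. Of the 669 lower genes 361 had 687 others, of which 85.4% had the same sign, 40.5% were over 2-fold lower and 1 was over 2-fold higher. Among the other probe sets of all genes 1.74% were over 2-fold higher and 2.55% lower.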

How the data were processed

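The files hold 1 Affymetrix mouse expression array of total RNA per condition. The authors subtracted background and normalized the arrays together by the robust multiarray analysis (RMA, with the affy package in R per the labels, versions not given in the sources used here), which gives log2 signals and makes the distributions of the arrays alike. The log base was read from the deposited log2 values, which run from 1.82 to 14.6, with array medians of 5.31 to 5.36. They were used as deposited. Such values cannot show a change common to all genes, and low signals compress differences. The number of arrays, 1 per condition, limits the precision.

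Of 45101 probe sets 34958 carry 1 gene symbol in the platform annotation, 932 several and 9211 none. Of those with 1, 34754 matched RefSeq by Entrez ID. Where several probe sets name 1 of the 18194 genes, the brightest by its mean on the 8 arrays stands for it. Differences were subtractions of log2 signals, with no test and no p-value. Genes called dim had no array above the median of all values, 5.33.

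Of 893 symbols in 33 hand-written lists 819 were measured, and lists share genes. The lists were pluripotency, LIF and Stat3, MEK and Erk feedback, Wnt, Nodal and BMP, primed epiblast, trophoblast, simple epithelial, keratinocyte, mesoderm, endoderm, neurectoderm, fibroblast, Polycomb targets, AP-1, p53, apoptosis, integrated stress response, SRF and YAP, adhesion, MHC class I, interferon, ribosome biogenesis, cell cycle, G1, lipid catabolism, sterol synthesis, glycolysis, germline, 2-cell, DNA methylation, imprinted and housekeeping genes. The comparison and the lists were chosen with earlier results of these data known. Genes named are Gnl3, Nanog and Esrrb, the 15 highest and 15 lowest above the median signal, up to 4 per list with the largest difference, and genes the study measured by RT-PCR. T (Brachyury), which the study also measured by RT-PCR, is not among them. Other genes named as list members, neighbours or overlaps were named after their values were seen. Neighbours and promoters (250 bases before to 50 after the start) came from RefSeq tables on GRCm38.p6, and no genome was used. The steps were tested on simulated data. Python 3.11.15, numpy 2.4.6, pandas 2.3.3 and matplotlib 3.10.9 were used.

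Results were recomputed after averaging each gene's probe sets, with every probe set taken singly, without _x_at probe sets, without dim genes, after quantile normalization of the 2 arrays or centring on medians, and at 1.5-fold and 3-fold. Counting a gene where any probe set passes and the 2i Dox-treated array as the reference were added after seeing the data.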

Additional observations from a re-analysis of the deposited data

Results flagged for a closer look

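Krtdap, a keratinocyte gene, was 1.17 higher in Nanog than in empty vector cells without Dox and differed by -2.03 with Dox. Gsn, the actin-severing protein gelsolin, likewise differed by 1.5 without and -1.83 with Dox, Prph, the intermediate filament peripherin, by 1.06 and -1.48, and Tdrd7, a Tudor domain protein, by 1.04 and -1.21. They were singled out because both differences pass 2-fold in opposite directions, and this change of direction was not tested. Their number, 4 of the 79 genes higher without Dox, is near the 3.68% of all genes over 2-fold lower with Dox. The probe sets with no gene symbol or with several were in no comparison above. Of 10143 such probe sets 113 were over 2-fold higher with forced Nanog and 119 over 2-fold lower, 2.29% in all against 5.64% of the 34958 probe sets with 1 symbol. No group holds more than 1 array, so no array could be set against others of its group.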

How the results depend on the processing

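Of 585 genes over 2-fold higher and 669 lower, the counts were 1530 and 1449 at 1.5-fold and 182 and 274 at 3-fold. With each of 34958 probe sets on its own, they were 877 and 1096, more features than genes. Averaging the probe sets of each gene, they were 414 and 542, and the other alternatives gave 495 to 687 higher and 631 to 792 lower. No paired analysis was possible because each condition has 1 array. Quantile normalization of the 2 arrays and centring moved no named gene's difference by more than 0.278, the standard deviation of the yardstick pair. Averaging the probe sets of each gene moved 53 of the 157 named genes by more than that. With the 2i Dox-treated array as the reference 114 moved by more than that, a further 15 over 2-fold turned sign, and 28 stayed within it. The sign of a difference over 2-fold turned with 1 probe set for Apobec2 (-0.073), Trpm1 (-0.035), Tbx3 (-0.090), Tpm1 (0.15), Cd44 (0.24), Bcl2l1 (0.28), Casp9 (-0.035), Lrp2 (0.13), Wnt5a (0.059), Tap1 (0.13) and Gsn (0.19). With the 2i Dox-treated array as the reference, a choice added after seeing the data, it turned for Trpm1 (-1.71), Klf2 (-0.073), Tfcp2l1 (-0.21), Dusp1 (0.026), Id1 (2.50), Cldn7 (0.51), Itga3 (0.21), Fn1 (-0.85), Bcl2l11 (0.61), Wnt5a (0.020), Oas1a (-0.59), Xist (0.46), Prickle2 (-1.08), S100a1 (-0.55) and Prph (1.33). That array holds cells with inhibitors in the medium. Of the 33 list medians, 6 moved by more than 0.278 with that reference, to 0.61 for MEK and Erk feedback, 0.41 for primed epiblast, 0.02 for Nodal and BMP, -0.29 for endoderm, -0.34 for simple epithelial and -0.36 for integrated stress response genes. Of the same medians, 2 moved by more than 0.278 over all probe sets, to -0.41 for trophoblast markers and -0.35 for simple epithelial genes, and 3 without dim genes, to -0.55 for keratinocyte, -1.22 for SRF and YAP and 0.45 for interferon genes. The cause of each change was not tested. Genes near background, 5724 of 18194, had little room to differ.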
